A study of Mus musculus with 6 samples.

Results

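The proteasome genes were examined in LSK-SLAM cells, the Lin- c-Kit+ Sca-1+ CD150+ CD48- fraction of bone marrow that is enriched for hematopoietic stem cells (HSCs). Members were all non-control probes whose gene name on the array begins with Psm, followed by a letter from a to g and a digit. This gave 61 of 39429 probes, for 49 gene names. One of these names, Psmc3ip, belongs to a factor of meiotic recombination that is no proteasome subunit, which left 48 proteasome genes. They comprised 14 genes of the 20S core, 3 immunoproteasome subunits, 20 genes of the 19S cap, 4 activators, 4 chaperones of 20S assembly, 2 tissue-restricted 20S subunits and 1 inhibitor.

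RNA was measured on 6 Agilent whole mouse arrays in a single colour, 3 of 2T-WT and 3 of 2T-p190-B-/- cells. The comparison asks what p190-B, a GTPase-activating protein encoded by Arhgap5, controls in HSCs after transplantation. Its germline loss is lethal to embryos, so fetal liver cells of p190-B-/- embryos or of WT littermates were transplanted, with CD45.1+ competitor marrow, into lethally irradiated CD45.1+ congenic mice, and marrow of these mice was given to secondary (2T) recipients. All 6 arrays therefore come from twice-transplanted, regenerated marrow, and the sort described in the labels names no CD45 allele, so the share of competitor or recipient cells in them is not known here. The study describes independent secondary recipients in each group and repeated isolations, but the labels tie no array to a mouse or an isolation, so p-values measure only the spread between these arrays, which may be partly technical. The recipients' age and the time of the sort for these arrays are not given in the sources used here.

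The proteasome is the main protease of the cytosol and nucleus for proteins tagged with ubiquitin. Its 20S core is a stack of alpha and beta rings, with the catalytic sites on Psmb5, Psmb6 and Psmb7. The 19S cap binds ubiquitin, unfolds substrates with a ring of ATPases (the Psmc genes) and feeds them into the core, while the Psme proteins are other caps that open the core without it. In immune cells and after interferon, the catalytic subunits can be replaced by Psmb8, Psmb9 and Psmb10, which changes the peptides offered to MHC class I. HSCs are known for low protein synthesis and for sensitivity to protein quality control.

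The probes behind the results on the catalytic subunits are shown first, because the level of a subunit here is the brightness of a single oligonucleotide, and the Psmb8 probe and 1 of the Psmb5 probes lie on related stretches of their genes. Each is written 5′ to 3′. Capitals in these 2 mark the bases that they share in their best ungapped alignment, 31 of 50 aligned bases with a longest run of 8.
Psmb8: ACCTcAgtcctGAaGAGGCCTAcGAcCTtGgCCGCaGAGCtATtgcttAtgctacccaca
Psmb5: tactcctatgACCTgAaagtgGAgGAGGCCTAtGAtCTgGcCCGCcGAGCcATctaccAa
Psmb9: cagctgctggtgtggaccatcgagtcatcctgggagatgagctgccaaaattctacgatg
Psmb10: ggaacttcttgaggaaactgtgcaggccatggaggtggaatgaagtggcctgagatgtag
Psmb7: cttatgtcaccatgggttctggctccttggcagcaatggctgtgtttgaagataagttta

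On the mm9 build the Psmb8 probe lies at chr17:34337771-34337830 and the Psmb9 probe at chr17:34319174-34319233, close together on the chromosome that carries the MHC. The probe of Psmb5 lies at chr14:55233161-55233220 and that of Psmb10 at chr8:108459677-108459736. The Psmb7 probe spans chr2:38468966-38489385, 20420 bases for 60 bases of probe, so it crosses at least 1 intron. All 5 match a RefSeq transcript and are therefore exonic.

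Levels below are log2 values of the processed signal relative to the 75th percentile of the same array, so 0 is a probe as bright as that percentile, and differences are p190-B-/- minus WT. Levels of different genes come from different probes, so their sizes are not compared. A probe entered the test where at least 3 of the 6 arrays had it flagged by Feature Extraction as well above background. That held for 48 of the 61 proteasome probes (78.7%), against 63.8% of all probes, and for 41 of the 48 genes, each represented by its brightest tested probe. The 7 genes not tested were Psma1, Psma5, Psma8, Psmb6, Psmd1, Psmd6 and Psmd13. All but Psma8, a testis subunit, belong to the set of core and cap subunits that cells need for a complete particle, and Psma1, Psma5, Psmd1 and Psmd6 were above background on none of the arrays.

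Several facts of the arrays bear on every value below. Before scaling, the 75th percentile of the signal was 53.9 to 227 on the WT arrays and 252 to 385 on the p190-B-/- arrays, so that all p190-B-/- arrays were brighter. Of the 61 proteasome probes, 32, 45 and 33 were above background on WT arrays 1 to 3, and 51, 39 and 43 on p190-B-/- arrays 1 to 3. Over all probes the shares were 48.6%, 66.9% and 50.7%, and 73.3%, 53.2% and 64.4%, in the same order of arrays. The 6635 probes that no array called above background had median levels of -4.60, -6.13 and -4.40 on the WT arrays and -6.98, -5.06 and -5.99 on the p190-B-/- arrays, a difference of -0.97 for probes with no measured signal. The part of these differences in brightness in the results was not tested. The single Arhgap5 probe was above background on 1 array only, p190-B-/- array 2, where its level was -2.71, and whether it lies in the deleted part of the gene is not given in the sources used here, so the genotype labels could not be checked. The sorting markers Kit and Ly6a (Sca-1) were tested, while Slamf1 (CD150) and Procr were above background on no array. Cd48, which the sort selects against, was above background on all 6, at 2.02, 0.09 and -1.41 in WT and 0.38, 0.96 and 2.05 in p190-B-/- cells. Cell number and RNA per cell cannot be told apart in such bulk samples.

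**Figure D1:**
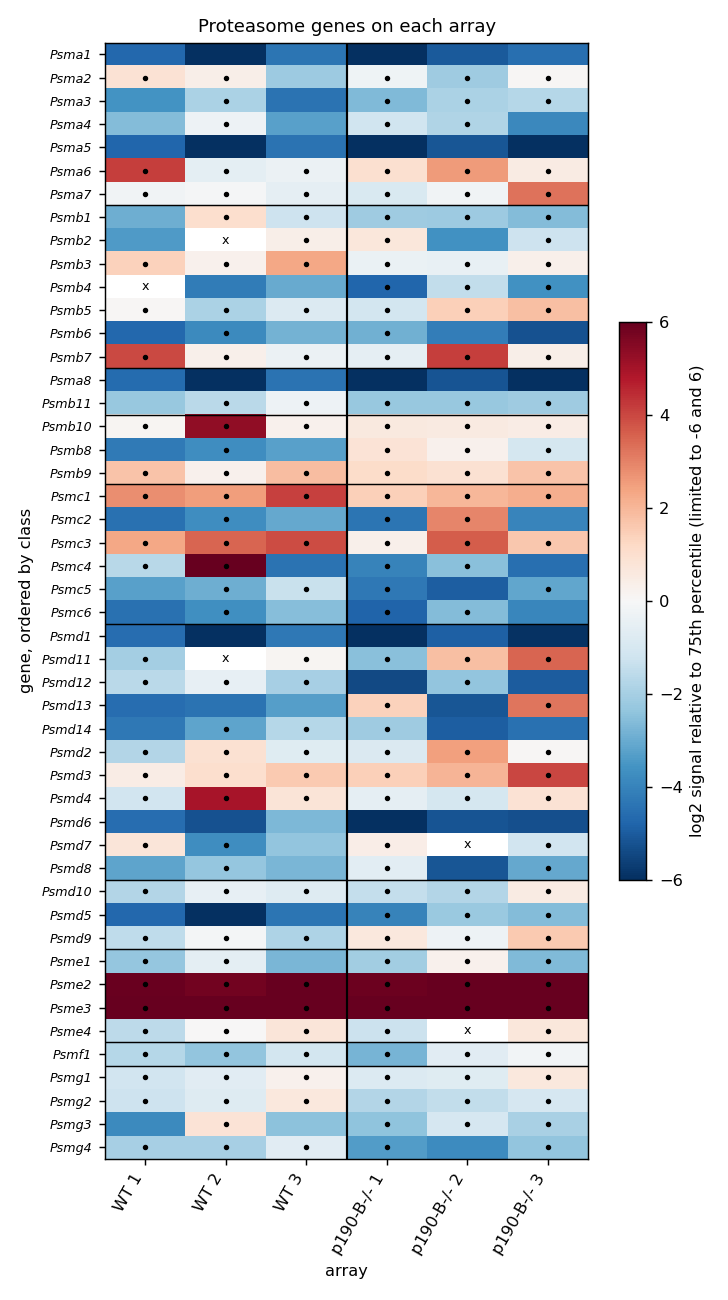
Each row is 1 of the 48 proteasome genes, ordered by class, and each column 1 array (3 WT on the left, 3 p190-B-/- on the right). Colour gives the log2 signal relative to the 75th percentile of the array (red brighter, blue dimmer, limited to -6 and 6), a dot marks a probe well above background and a cross a spot left out as an outlier. Psma1, Psma5, Psma8, Psmd1 and Psmd6 have no dot on any array, and single bright cells such as Psmb10, Psmc4 and Psmd4 on WT array 2 stand out.

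Across the 41 tested genes, 20 were higher and 21 lower in p190-B-/- cells by their means, with a median difference of -0.03 and a range from -3.67 to 3.76. The median over all 21705 genes tested was -0.35, so 26 of the 41 proteasome genes lay above the median of all genes and 15 below it. The split depended on the processing. With background modelled from the spot and local background signals (normexp, offset 50), 13 were higher and 28 lower, with a median of -0.57. Within the slide that carried both groups, 14 were higher and 27 lower, with a median of -0.47. The medians over all probes tested were -0.47 and -0.48 in the same settings. Class medians given below for these settings are to be read beside them. No proteasome probe passed an adjusted p of 0.05 in limma, where the same was true of all 25160 probes tested (0% called), and the lowest adjusted p among the proteasome probes was 0.429, for Psmb8. Unadjusted p-values under 0.05 from limma were found for 4 proteasome probes and 1654 of all probes. The t-test named in the study's methods gave 1 and 1783 at the same threshold, and 0 of all probes after adjustment.

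Counted by gene, 3 of 41 proteasome genes (7.32%) had an unadjusted limma p under 0.05, against 6.37% of all genes. In 2 genes, Psmb8 and Psmd5, every p190-B-/- array was above every WT array (4.88%, against 4.42% of all genes). In 4 genes, Psmc1, Psmd12, Psme3 and Psmg4, every p190-B-/- array was below every WT array (9.76%, against 12.1% of all genes). These shares are near those of all genes, and Psmd5 is counted in the first 2 of them although it was above background on no WT array.

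The spread between arrays of a group was wide. The median within-group SD of the proteasome genes was 1.31 on the log2 scale, against 1.04 for all genes, and 46.3% of them were above background on all 6 arrays, against 57.3%, differences given here without a test. In 5 of the 41 genes (12.2%, against 6.76% of all genes) a single array was brighter than every other by at least 3 log2 units. This was WT array 2 for Psmb10, Psmc4 and Psmd4, p190-B-/- array 2 for Psmc2 and p190-B-/- array 3 for Psma7. The share of probes above background also differed between the arrays, and its part in these values was not tested.

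The immunoproteasome subunits did not move together. Psmb8, which replaces the chymotrypsin-like subunit, had the highest difference of the 41 tested proteasome genes. Its levels were -4.26, -3.73 and -3.27 on WT arrays 1 to 3 and 0.80, 0.26 and -1.07 on p190-B-/- arrays 1 to 3. The lowest p190-B-/- array was thus 2.20 above the highest WT array. Of the WT arrays only array 2 called the probe above background, against all 3 p190-B-/- arrays. The lowest signal called above background was -2.69 on WT array 1 and -2.26 on WT array 3, so the Psmb8 levels there are bounds. Both limits lie below every p190-B-/- level of Psmb8, but the size of the gap is uncertain, as is that of the group difference. The group difference as measured was 3.76 ± 0.77 (SE), with a limma p of 0.00115 and an adjusted p of 0.429. It ranged from 3.35 to 4.29 when any 1 array was left out and was 4.03 within the slide that carried both groups. It was 0.94 with normexp background, which pulls values near background together. Before any scaling the signal was 5.59 to 17.1 on the WT arrays and 121 to 672 on the p190-B-/- arrays.

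Psmb9, which replaces the caspase-like subunit, is transcribed from the same region. Its levels were 1.70, 0.27 and 1.86 in WT and 1.11, 0.91 and 1.71 in p190-B-/- cells. The groups overlapped fully, with a difference of -0.03 ± 0.74 (SE), and the probe was above background on every array. Before scaling, where all p190-B-/- arrays were brighter, Psmb9 was apart as Psmb8 was. Its signal was then 196 to 405 on the WT arrays and 603 to 834 on the p190-B-/- arrays. Psmb10, which replaces the trypsin-like subunit, stood at 0.13, 5.33 and 0.27 in WT and at 0.60, 0.56 and 0.42 in p190-B-/- cells. The 3 p190-B-/- arrays were within 0.18 of each other, and its difference of -1.38 ± 1.36 (SE) rested on WT array 2, without which it was 0.33.

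Among the constitutive counterparts, Psmb5 (chymotrypsin-like) had 2 tested probes. The brighter one read 0.06, -1.91 and -0.82 in WT and -1.10, 1.44 and 1.81 in p190-B-/- cells, a difference of 1.61 ± 0.98 (SE). The other, further along the same transcript, read -0.47, -0.59 and -0.32 in WT and -1.03, -0.59 and 0.62 in p190-B-/- cells, a difference of 0.13. The groups overlapped on both. Psmb6 (caspase-like) was above background on 1 WT and 1 p190-B-/- array and was not tested. Psmb7 (trypsin-like) was bright on 1 array of each group, at 3.98 on WT array 1 and 4.14 on p190-B-/- array 2, with the other arrays between -0.53 and 0.34 and a difference of 0.01.

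Each inducible subunit was also taken relative to its counterpart within the same array, where only the difference between the groups is read. For Psmb8 less the brighter Psmb5 probe this value was -4.33, -1.82 and -2.45 in WT and 1.90, -1.18 and -2.88 in p190-B-/- cells, so the groups overlapped. The dimmer Psmb5 probe, whose own difference was 0.13, was not used here, so this overlap is known for the brighter probe only. The group means differed by 2.15 (exact two-sided permutation test, p = 0.3). The corresponding difference was -1.39 (exact p = 0.8) for Psmb10 less Psmb7. Psmb9 less Psmb6 is not read, since Psmb6 was above background on only 2 of 6 arrays. Adjusted over the 3 comparisons the exact p-values were 0.8 each, and with 3 arrays a group the test cannot go below 0.1.

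**Figure D2:**
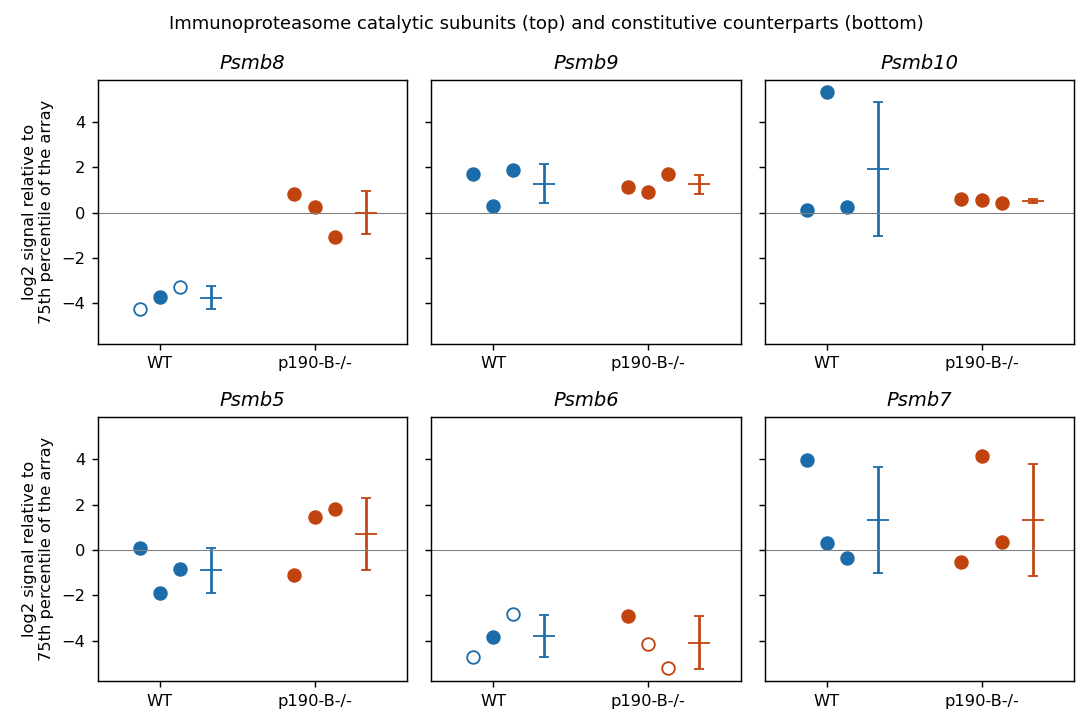
Level of the 3 immunoproteasome catalytic subunits (top) and their constitutive counterparts (bottom) on each array, as log2 signal relative to the 75th percentile. Filled points were well above background, open points were not, and the cross with bars gives the mean and SD of 3 arrays. Psmb8 is the only 1 of the 6 whose groups do not overlap.

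In the rest of the 20S core, 3 of 5 tested alpha-ring genes were higher and 2 lower, with a median difference of 0.27 that was -0.49 with normexp background. Psma3, which had the highest difference of the ring, read -3.58, -1.90 and -4.45 in WT and -2.65, -1.91 and -1.70 in p190-B-/- cells, a difference of 1.22 ± 0.84 (SE). It was above background on 1 WT and 3 p190-B-/- arrays. Psma2 had the lowest difference, -0.47, with levels of 0.88, 0.37 and -2.20 in WT and -0.28, -2.14 and 0.05 in p190-B-/- cells. Psma7 lay between -0.90 and -0.07 on 5 arrays and at 3.26 on p190-B-/- array 3.

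In the beta ring, 4 of 6 tested genes were higher and 2 lower, with a median of 0.07 that was -0.67 with normexp background and -0.60 within the slide that carried both groups. Psmb3 had the lowest difference, -1.50 ± 0.77 (SE), with levels of 1.40, 0.25 and 2.31 in WT and -0.40, -0.44 and 0.30 in p190-B-/- cells. Its signal before scaling differed by no more than 1.39-fold over the 6 arrays. Psmb1 was lower by its means as well (-1.25), with p190-B-/- arrays between -2.61 and -2.12 and WT arrays from -2.91 to 1.02. Psmb2 and Psmb4 rested on 2 WT arrays each, since 1 spot was left out as an outlier, and the Psmb4 probe was above background on no WT array. Over the 11 tested genes of both rings the median difference was 0.12, with 7 higher and 4 lower, and it turned to -0.59 with normexp background. Psmb11, the subunit of the thymus cortex, read -2.28, -1.60 and -0.30 in WT and -2.27, -2.28 and -2.12 in p190-B-/- cells, a difference of -0.83.

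In the 19S cap, 8 of 17 tested genes were higher and 9 lower, with a median difference of -0.19 that was 0.08 with quantile normalization. Of the 6 ATPases of its base, 5 had a lower mean in p190-B-/- cells (83.3%, against 61.5% of all genes) and 1 a higher mean. Their median was -1.33, against -0.35 for all genes, while the representing probe of none had an unadjusted limma p under 0.05. The median of those tested stayed below 0 in the alternatives and left-out arrays, between -1.66 and -0.83, over 2 genes where all 6 arrays had to be above background. That of all probes was also below 0 in each, from -0.55 without the filter on dim probes to -0.10 with quantile normalization. The widest differences of the ATPases rested on single arrays. Psmc4 read -1.64, 6.01 and -4.41 in WT and -4.02, -2.51 and -4.53 in p190-B-/- cells, a difference of -3.67 ± 2.32 (SE), which was -0.66 without WT array 2. Psmc2, the 1 that was higher, read -4.46, -3.72 and -3.08 in WT and -4.39, 2.93 and -3.95 in p190-B-/- cells, a difference of 1.95 that became -0.42 without p190-B-/- array 2. A second Psmc2 probe that overlaps the first, above background on 2 p190-B-/- arrays only, showed the same bright array, at 3.20, so that the 2 probes are not independent.

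Psmc1 was the ATPase gene whose groups did not overlap. It read 2.81, 2.5 and 4.09 in WT and 1.42, 1.97 and 2.19 in p190-B-/- cells, a difference of -1.27 ± 0.74 (SE). A dimmer Psmc1 probe gave -0.67 with overlapping groups. Before scaling, the brighter probe had signals of 874.5, 1283 and 921 on the WT arrays and 1027, 1257 and 1152 on the p190-B-/- arrays, which overlap. Psmc3 had 2 tested probes, both with a lower mean in p190-B-/- cells (-1.38 and -3.72). The second, with a limma p of 0.0390 and an adjusted p of 0.637, read 7.41, 3.13 and 1.69 in WT and 0.65, -1.40 and 1.83 in p190-B-/- cells, and was highest by far on WT array 1.

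Of the 8 tested non-ATPase subunits of the cap, 4 were higher and 4 lower. Psmd12, a scaffold subunit of the lid, had the lowest difference. Its levels were -1.61, -0.48 and -1.99 in WT and -5.42, -2.37 and -4.99 in p190-B-/- cells, so all p190-B-/- arrays were below all WT arrays and 2 of them were not above background. All 3 WT arrays called the probe above background. The lowest signal called above background was -4.84 on p190-B-/- array 1 and -3.78 on p190-B-/- array 3. The Psmd12 levels there are therefore bounds, and the size of the difference is uncertain. Before scaling the signals were 40.8, 162 and 13.6 on the WT arrays and 8.98, 62.2 and 7.94 on the p190-B-/- arrays, which overlap. The difference as measured was -2.90 ± 0.97 (SE), with a limma p of 0.0174 and an adjusted p of 0.637. It stayed between -3.84 and -1.72 in all alternatives and arrays left out that could be computed. A second Psmd12 probe was above background on no array. Psmd11, a neighbour of Psmd12 in the lid, had the highest difference of the subunits (1.89 ± 1.76, SE), from levels of -2.02 and 0.11 on WT arrays 1 and 3, with array 2 left out as an outlier, and -2.52, 1.81 and 3.51 in p190-B-/- cells. It was -0.47 within the slide that carried both groups.

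Psmd3, another lid subunit, read 0.44, 1.02 and 1.59 in WT and 1.42, 2.03 and 4.02 in p190-B-/- cells, a difference of 1.47 with groups that overlapped by 1 pair of arrays. Psmd4, a ubiquitin receptor, read -1.14, 4.97 and 0.78 in WT and -0.54, -1.07 and 0.88 in p190-B-/- cells. Its difference of -1.78 was set by WT array 2. Psmd13 was above background only on p190-B-/- arrays 1 and 3, at 1.38 and 3.23, and lay at -5.13 on array 2. It was above background on no WT array and was not tested, and since 1 p190-B-/- array was dim as well, no fold is given.

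The 3 chaperones that assemble the base of the cap all had a higher mean in p190-B-/- cells, with a median of 1.81, but 1 of 3 did with normexp background and 2 of 3 within the slide that carried both groups. Psmd5 was at -4.71, -6.19 and -4.38 on the WT arrays, where it was not above background on any of them, and at -4.01, -2.22 and -2.62 on the p190-B-/- arrays, which all called it above background. It passed the detection rule only through the group where it was brighter, and the WT levels are bounds, so the p190-B-/- mean is known only to be at least 1.03-fold higher (limma adjusted p of 0.637). With normexp background the measured difference of 2.15 was -0.74. Psmd9 had probes of opposite sign, 1.81 for the brighter and -1.99 for the other, and Psmd10 (gankyrin) differed by 0.10.

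The probes of Psmd5 and Psmd12, the cap genes with an unadjusted limma p under 0.05 for their representing probe, are shown because each result rests on that 1 probe.
Psmd5: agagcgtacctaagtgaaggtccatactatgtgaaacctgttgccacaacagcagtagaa
Psmd12: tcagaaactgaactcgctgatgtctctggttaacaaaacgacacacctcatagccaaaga
They lie on mm9 at chr2:34708108-34708167 and chr11:107358963-107359022, in exons of RefSeq transcripts.

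Of the activators, 1 was higher and 3 lower, with a median of -0.09 that was 0.22 with quantile normalization. Psme1 and Psme2 form the interferon-inducible cap known as PA28. Psme1 read -2.32, -0.58 and -2.75 in WT and -2.07, 0.24 and -2.65 in p190-B-/- cells, overlapping groups with a difference of 0.39. The brightest Psme2 probe read 5.93, 5.78 and 6.85 in WT and 5.86, 5.95 and 6.28 in p190-B-/- cells, a difference of -0.16. That probe carries no RefSeq match and an annotated span of 219297 bases, chr14:56209736-56429032. The RefSeq probe of Psme2 read -1.24, 0.58 and -1.42 in WT and -1.91, 0.10 and -0.18 in p190-B-/- cells, a difference of 0.03. Psme4 (PA200) differed by -0.03 and -0.08 on its 2 probes, the first with p190-B-/- array 2 left out as an outlier.

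Psme3, the nuclear activator known as PA28 gamma, had the 1 activator probe whose groups did not overlap. It read 9.35, 8.52 and 10.82 in WT and 7.73, 7.96 and 8.46 in p190-B-/- cells, a difference of -1.52 ± 0.80 (SE) with an adjusted p of 0.637 in limma. Before scaling its signal was nearly the same on all arrays, 81329, 83724 and 97617 in WT and 81518, 79865 and 88965 in p190-B-/- cells, a range of 1.22-fold in which the groups overlap. With quantile normalization the difference was -0.19. This probe is a repeat-like sequence, in which 42 of 59 steps from base to base are TG, GT, CA or AC, and only 0.0304% of the 39429 probes have as many.

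**Figure D3:**
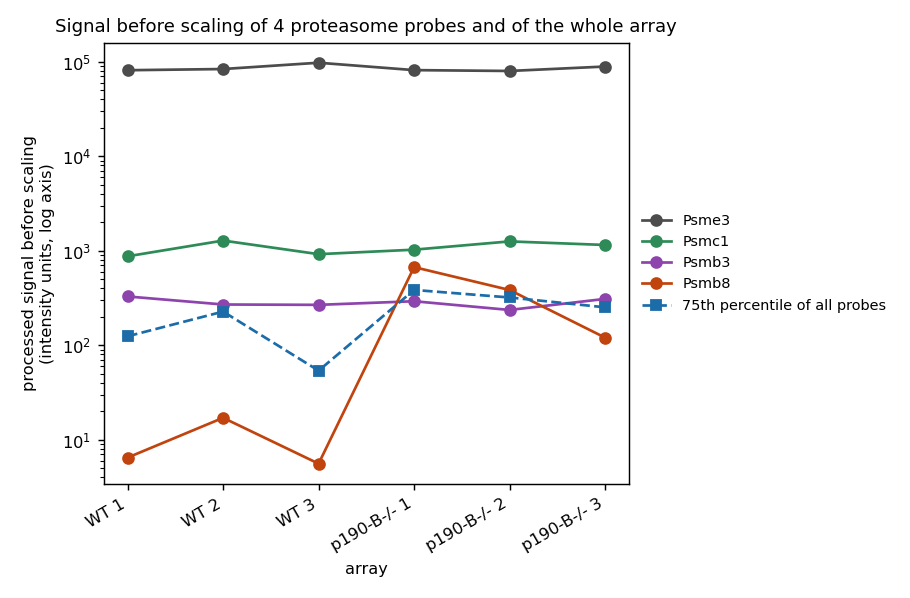
Processed signal before scaling on the 6 arrays, on a log axis, for the probes of Psme3, Psmc1, Psmb3 and Psmb8 (points joined by lines) and for the 75th percentile of all probes (squares, dashed). The Psme3, Psmc1 and Psmb3 signals stay within 1.22-fold, 1.47-fold and 1.39-fold over the arrays, while the 75th percentile is higher on all p190-B-/- arrays and Psmb8 moves from at most 17.1 in WT to at least 121.

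The inhibitor Psmf1 (PI31) had a difference of 0.52 ± 0.89 (SE), with levels of -1.71, -2.38 and -1.12 in WT and -2.81, -0.69 and -0.16 in p190-B-/- cells. Of the chaperones of 20S assembly, 2 were higher and 2 lower, and all 4 were lower with normexp background and within the slide that carried both groups. Psmg4 read -2.0, -2.01 and -0.70 in WT and -3.35, -3.77 and -2.36 in p190-B-/- cells. Its groups did not overlap, with a difference of -1.59 ± 0.76 (SE) and an adjusted p of 0.637 in limma. Before scaling, its signals were 31.1, 56.4 and 33.2 on the WT arrays and 37.7, 23.6 and 49.3 on the p190-B-/- arrays, which overlap. Psmg1 had the highest difference of these chaperones, 0.22, from levels of -1.13, -0.69 and 0.24 in WT and -0.83, -0.71 and 0.62 in p190-B-/- cells. Psmg2, which pairs with Psmg1, differed by -0.96 and Psmg3, which pairs with Psmg4, by 0.03. Psmc3ip differed by -0.31.

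**Figure D4:**
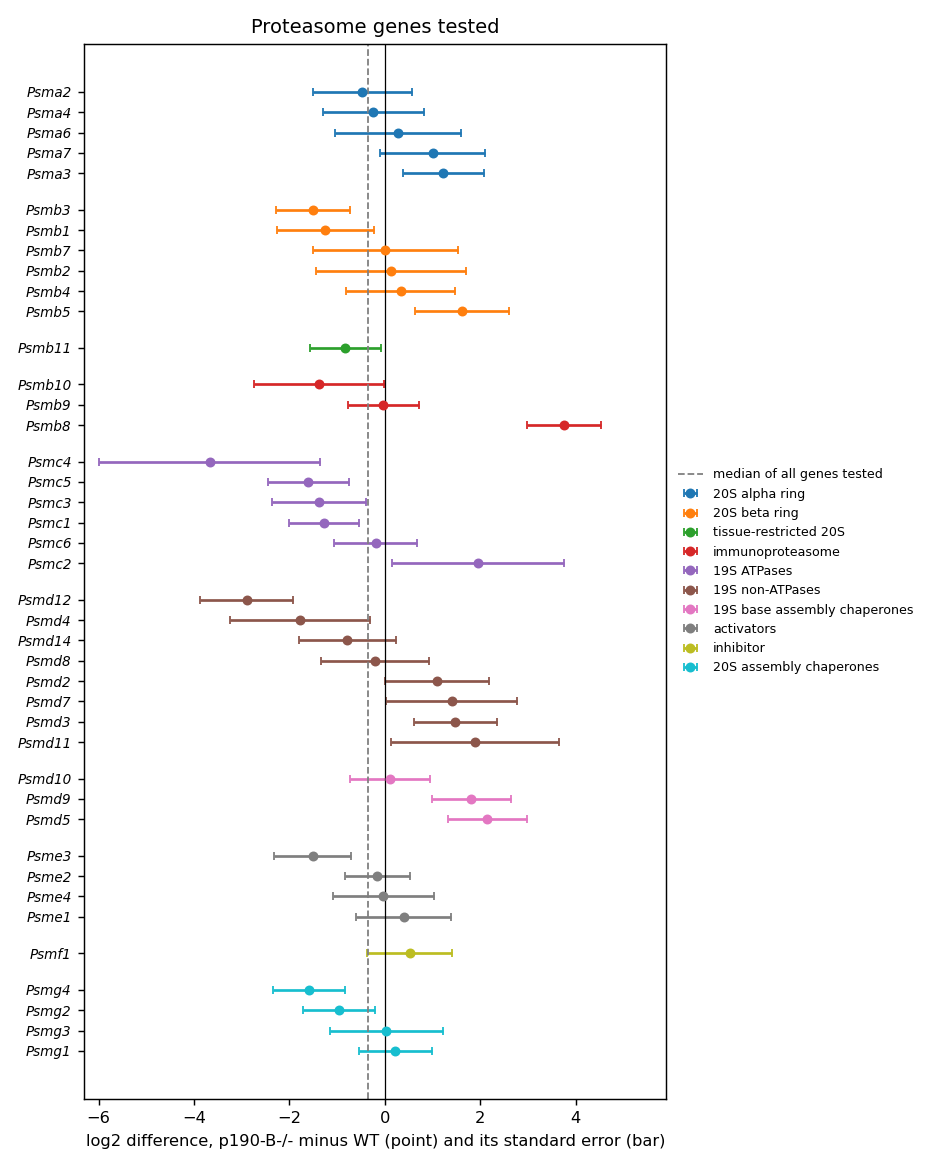
Log2 difference (p190-B-/- minus WT, points) with its standard error from limma (bars) for the 41 tested proteasome genes, coloured by class. The solid line is at 0 and the dashed line at -0.35, the median of all genes tested. Psmb8 at 3.76 lies farthest to the right, Psmc4 at -3.67 farthest to the left with the widest bar among the ATPases.

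To compare whole classes between arrays, each gene was centred on its own mean over the 6 arrays. The median centred value of the 41 genes was -0.45, 0.17 and 0.13 in WT and -0.62, -0.16 and 0.01 in p190-B-/- cells, so the groups overlapped. That of all genes tested was -0.02, -0.04 and 0.33 in WT and -0.39, -0.43 and -0.05 in p190-B-/- cells, where the p190-B-/- arrays lay lower. The median of the 3 immunoproteasome genes was -1.09, -0.99 and -0.95 in WT and -0.15, -0.35 and 0.45 in p190-B-/- cells. These did not overlap, although Psmb9 and Psmb10 by themselves did, and a median of 3 genes is the value of 1 of them. On WT arrays 1 and 3 that gene was Psmb10, whose mean over the arrays was raised by its level of 5.33 on WT array 2. On the other arrays it was Psmb9. The separation is therefore not read as a change of the class, whose median difference was -0.03. The medians of the 20S core ran from -0.77 to -0.14 in WT and from -0.45 to 0.36 in p190-B-/- cells. Those of the 19S cap ran from -0.80 to 0.33 and from -0.97 to 0.12, and those of the activators from -0.41 to 0.88 and from -0.69 to -0.09.

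Genes that work with the proteasome but carry other names were counted from lists. Of 17 listed subunits, chaperones and cofactors of the particle on the array, 11 were tested, with 3 higher and 8 lower (72.7% lower, against 61.5% of all genes) and a median of -0.46. Pomp, the maturation factor of the 20S core, was the 1 tested gene of that list whose groups did not overlap (9.09%, against 12.1% of all genes lower on every array). It read -0.21, -1.70 and 2.42 in WT and -3.18, -2.37 and -3.37 in p190-B-/- cells, a difference of -3.15 ± 1.08 (SE) with an adjusted p of 0.637 in limma. Of 9 regulators of proteasome gene transcription 7 were tested, with 3 higher and 4 lower, and Nfya, a subunit of NF-Y, had groups that did not overlap (-1.85 ± 0.78, SE, adjusted p of 0.637 in limma). Of 9 genes of ubiquitin supply and delivery 8 were tested, with 3 higher and 5 lower, and the segregase Vcp had groups that did not overlap (-1.38 ± 0.73, SE, adjusted p of 0.637 in limma). For Pomp, Nfya and Vcp the signal before scaling was not examined.

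Of 9 genes that process or load MHC class I peptides, 5 were tested, with 1 higher and 4 lower and a median of -1.33. B2m, the light chain of MHC class I, and Pdia3 were above background on no array, and Tap1, whose gene is a neighbour of Psmb8 and Psmb9, was above background on 1 p190-B-/- array. The 1 gene apart in each of the lists of 11, 7 and 8 tested genes is near the share of all genes. None of these lists held a gene with an adjusted p under 0.05. The interferon-linked regulators Irf1 and Nlrc5 had differences of -1.15 and -0.11, each with overlapping groups. Markers of macrophages and dendritic cells, which use the immunoproteasome, had a summed linear level of 59.9 to 163 on the WT arrays and 32.5 to 47.2 on the p190-B-/- arrays, with 5 to 6 and 5 to 8 of the 8 markers above background. One probe, Csf1r, made up 82.6% to 92.8% of that sum, and of the 5 tested markers 2 were higher and 3 lower in p190-B-/- cells. For Csf1r (-1.18) and Cd14 (-2.17) every p190-B-/- array was below every WT array. These are 40% of the tested markers, against 12.1% of all genes. The groups of Emr1 (0.96), H2-Ab1 (0.54) and Cd74 (-0.98) overlapped, and the sum is not read as a number of macrophages or dendritic cells. The summed level of red cell markers was 324 to 985 in WT and 213 to 301 in p190-B-/- cells, although 4 of its 5 tested genes were higher. Nearly all of that sum came from the Ermap probe. It read 9.18, 8.33 and 9.94 in WT and 7.77, 7.71 and 8.21 in p190-B-/- cells, so the sum is not read as a number of red cells. Of 7 tested B lymphocyte markers 1 was higher and 6 lower (85.7% lower, against 61.5% of all genes). Their list had a summed level of 5.49 to 726 in WT and 4.58 to 6.45 in p190-B-/- cells. The highest sum was on WT array 3, where Cd79a read 9.47. The part of macrophages, dendritic cells, red cells, B lymphocytes or other cells in the difference of Psmb8 was not tested.

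Promoter sequences from RefSeq (GRCm38.p6) were found for 40 of the 48 genes, as short stretches around the start of each gene. The antioxidant response element TGACNNNGC, bound by Nfe2l1 and Nfe2l2, was found on either strand in 15% of these genes and in 14.0% of all 27025 genes. The CCAAT box (CCAAT, bound by NF-Y) was found in 35% and 41.1%, and the interferon-stimulated element GAAANNGAA, bound by Irf1, in 17.5% (7 genes) and 9.76%, but in none of the 3 immunoproteasome promoters. The stretch below shows the match to the first of these in the promoter of Psmb5, the catalytic subunit with 2 tested probes, with the matching letters in capitals.
Psmb5: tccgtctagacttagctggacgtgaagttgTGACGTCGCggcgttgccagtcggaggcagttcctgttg
It lies at chr14:54618004-54618072 on the minus strand, with the match starting 47 bases before the gene's start. Such a match is a description of these letters and was not measured as a binding site.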

How the data were processed

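Per the labels, LSK-SLAM cells were lysed and their RNA was prepared, amplified to cDNA, labelled with Cy3 and hybridised by a service laboratory. The authors deposited the scanner output of Agilent Feature Extraction 10.5.1.1 (probe annotation mm9), whose processed signal is an intensity on a linear scale with background removed, not scaled between arrays, and a table of the same signals divided by 1 number per array, close to its median. Here control and outlier spots were dropped, repeated spots averaged, and log2 of the signal was taken relative to the 75th percentile of each array. Probes that at least 3 of 6 arrays flagged as well above background were tested with limma 3.58.1 (R 4.3.3, lmFit and eBayes, no covariates, Benjamini-Hochberg over all 25160 probes), after a check on simulated data. Catalytic pairs were compared by an exact permutation test. A difference against a group with no array above background is a bound, taken against the lowest signal called above background on each array. Alternatives covered normalization, background, filter, slide, replicate block, variance model, left-out arrays and the deposited table, and 1 on the Psme2 probe was chosen after seeing the data.

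Names, given per probe in the files, matched RefSeq for 60 of 61 probes. Values were shown per array for the catalytic subunits, the activators, and the highest and lowest gene of each class. They were also shown for genes whose groups did not overlap and whose means differed by at least 1 log2 unit. Members and lists were chosen with earlier results of these data known. A further regulator and promoter motif are not reported here. Only 6 arrays limit the precision.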

Additional observations from a re-analysis of the deposited data

How the results depend on the processing

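No alternative gave a proteasome probe with an adjusted p under 0.05 (0 in each). The counts of higher and lower genes, 20 and 21, became 10 and 9 when all 6 arrays had to be above background, and 13 were higher with normexp background. The 6 genes whose groups did not overlap (14.6%, against 16.5% of all genes) became 10 with normexp background (24.4% against 23.1%), 2 of 19 with all 6 arrays above background (17.6% of all genes), 15 within the shared slide (36.6% against 46.0%), and 8 to 12 with 1 array left out, where 23.3% to 33.0% of all genes were apart. The median of the 20S core (0.12) was -0.59 with normexp background and -0.43 to 0.50 with 1 array left out. That of the immunoproteasome (-0.03) was 0.38 with normexp background, -0.71 with all arrays above background and -0.27 to 0.33 with 1 array left out. That of the activators (-0.09) was -0.84 with all arrays above background, -1.03 with slide as a block or within the shared slide, and -0.64 to 0.30 with 1 array left out. Over all probes tested the median was -0.47 with normexp background, -0.44 with all arrays above background and -0.48 within the shared slide. Psmb8 less Psmb5 was -0.26 with normexp background. Psmb9 less Psmb6, with Psmb6 mostly below background, was -0.46 with quantile normalization and -0.54 to 0.93 with 1 array left out. Psmb10 less Psmb7 was -3.62 to 0.83 with 1 array left out. The causes were not tested.

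Of 24 named genes under 348 gene and alternative pairs, 303 kept their sign and 45 did not, and 9 genes never changed sign. With normexp background the sign changed for Psmb9 (0.38), Psme1 (-0.54), Psme2 (0.77), Psma3 (-0.66), Psmd5 (-0.74), Psmd10 (-0.38), Psmf1 (-0.14) and Psmg1 (-0.044). With slide as a block, and within the shared slide, it changed for Psmd11 (-0.47), Psmd10 (-0.97), Psmf1 (-0.00019) and Psmg1 (-0.55). Psme2 was 1.04 with quantile normalization and 0.032 on its RefSeq probe. In the deposited table of processed signals, Psmb9 was 0.089 and Psme4 0.082. With 1 array left out, the range crossed 0 for Psmb9 (-0.54 to 0.26), Psmb10 (-2.27 to 0.33), Psmb7 (-1.40 to 1.34), Psme1 (-0.48 to 1.04), Psme2 (-0.36 to 0.18), Psme4 (-1.0 to 0.94), Psma2 (-1.42 to 0.20), Psmc2 (-0.42 to 3.25), Psmc3ip (-0.94 to 0.18), Psmd10 (-0.59 to 0.53), Psmf1 (-0.014 to 1.31) and Psmg1 (-0.25 to 0.60).

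The labels number the replicates 1 to 3 in each group and do not say whether same-numbered arrays share an isolation. Deviations of same-numbered arrays correlated at 0.00896, 0.0161 and 0.0863, and those of other pairs at -0.075 to 0.067. With 3 arrays a group these values cannot settle whether the arrays are paired. With the replicate number as a block, limma gave an unadjusted p under 0.05 to 3 proteasome probes in place of 4, and to 1872 of all probes in place of 1654, and Psme4 was 0.13. Probes near background, among them Psmb8 and Psmd5 in WT and Psmd12 in p190-B-/- cells, limit what the arrays can show.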
